A study of Mus musculus with 8 samples.

Results

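The genes described here are 51 genes of DNA replication and S phase, the stage of the cell cycle in which the genome is copied. They were taken by symbol from a fixed list, and all 51 were found among the 55353 genes of the count table. All 51 also passed the filter on low counts and belong to the 13992 genes tested. The RNA came from primary mouse aortic vascular smooth muscle cells, revived from frozen stocks in culture dishes. There were 8 polyA-enriched libraries, 2 from each of 4 genotypes: wild type and knockout for E12, and wild type and knockout for E47. E12 and E47 are splice forms of the transcription factor gene Tcf3 that use alternative exons for the basic helix-loop-helix domain, which binds DNA. Per the labels, the libraries of a genotype were independent extractions. The sources used here do not say whether these came from separate cultures or animals, so p-values measure how far extractions differ, which may be a technical spread. How the knockouts were made, the age of the mice and the relation between the E12 and E47 cells are not stated either.

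Replication starts when the origin recognition complex, Cdc6 and Cdt1 load the Mcm2 to Mcm7 helicase onto DNA in G1. In S phase, Cdc45 and the GINS complex join that helicase, polymerase alpha and primase lay primers, and polymerases delta and epsilon copy the strands with the sliding clamp Pcna. E2F factors, held back by the RB family until G1 ends, switch on most of these genes, so their RNA rises with the share of cells that are cycling. In healthy aorta smooth muscle cells divide rarely, while in culture and after vessel injury they re-enter the cell cycle.

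Library totals ran from 13909230 to 27517374 counts, of which the 51 genes held between 16972 and 33749. Levels are given as CPM, counts scaled to a common library total, with edgeR's trimmed-mean scaling. The targeted gene Tcf3 read 109 and 107 CPM in E12 wild-type cells against 145 and 143 in its knockout, and 94.5 and 93.7 against 128 and 128 for E47. These counts sum all Tcf3 transcripts, so they do not check the loss of a single splice form. The 14 smooth muscle markers, all tested, summed to 5800 to 5860 CPM in E12 wild-type cells, 4450 to 4640 in the E12 knockout, 8940 to 9070 in E47 wild-type cells and 5210 to 5690 in the E47 knockout. Of them, 9 were lower and 3 higher in the E12 knockout, where 24.5% and 21.9% of all genes tested were. In the E47 knockout 11 were lower and 2 higher, where 27.5% and 27.7% of all genes were. In E12 against E47 wild-type cells 10 were lower and 2 higher, where 27.6% and 27.8% of all genes were. Between the knockouts 10 were lower and 0 higher in E12, where 27.0% and 25.9% of all genes were. The libraries labelled E47 wild type also held endothelial RNA. The 12 endothelial markers summed to 900 to 977 CPM there, against 70.6 to 78.2 in E12 wild-type cells. The sum was 10.2 to 10.6 in the E12 knockout and 218 to 219 in the E47 knockout, where Eng alone read 211 and 215. Kdr went the other way between the wild types, at 5.17 and 2.84 CPM for E12 against 2.15 and 2.65 for E47. Pecam1 read 211 and 194 CPM and Cdh5 174 and 167 CPM in E47 wild-type cells, and neither passed 2.24 CPM in any other library, while Cldn5 was at 0 in every library. The 8 mesothelial markers summed to 1470 to 1580 CPM in E12 wild-type cells, 874 to 894 in the E12 knockout, 205 to 222 in E47 wild-type cells and 398 to 412 in the E47 knockout. The 9 fibroblast markers summed to 194 to 201, 212 to 236, 207 to 220 and 440 to 498 CPM in the same order. Single markers departed from these sums. Mesothelial Krt18 read 122 and 111 CPM in E47 wild-type cells and 0.319 to 2.52 in the other libraries. Of the fibroblast markers, Dcn read 63.1 and 58.8 CPM in E12 and 2.15 and 1.95 in E47 wild-type cells. Cd34 read 1.79 in both E12 wild-type libraries and 95.1 and 91.6 in those of E47. Macrophage markers summed to 1.56 to 15.3 CPM, with C1qa and C1qb at 0. The part of these differences in cell content in the results below was not tested.

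Promoter sequences show what many of these genes have in common and are printed for members on which the results turn. The RefSeq promoter table (GRCm38.p6) held 42 of the 51 genes, as windows of 300 bases from 250 before to 50 after the start. Capitals mark E2F words, that is TTTCCCGC, TTTGGCGC, TTTCGCGC, TTTGCCGC, TTCCCGCC or TTGGCGCC on either strand, and overlapping words run together. For Mcm6 (chr1:128359706-128359885, minus strand), Mcm7 (chr5:138171884-138172063, minus strand), Pola1 (chrX:93632156-93632335, minus strand) and Uhrf1 (chr17:56303157-56303336, plus strand) the 180 bases before the start are given. Mcm7 and Uhrf1 each had 2 windows, and the first is shown. The second held no E2F word in Mcm7 and TTTCGCGC in Uhrf1. In the first window of Mcm7 a further word, TTTCGCGC, began at base 17 after the start and is not shown. Mcm6 and Mcm7 were higher in both knockouts, whereas Pola1 and Uhrf1 were higher in the E12 knockout and lower in the E47 knockout.
Mcm6: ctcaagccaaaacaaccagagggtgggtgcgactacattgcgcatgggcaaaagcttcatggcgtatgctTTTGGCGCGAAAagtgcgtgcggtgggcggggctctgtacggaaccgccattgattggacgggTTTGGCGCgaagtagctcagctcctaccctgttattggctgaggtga
Mcm7: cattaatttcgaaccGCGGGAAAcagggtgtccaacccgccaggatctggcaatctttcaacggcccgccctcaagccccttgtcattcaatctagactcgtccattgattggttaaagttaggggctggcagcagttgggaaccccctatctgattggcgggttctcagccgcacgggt
Pola1: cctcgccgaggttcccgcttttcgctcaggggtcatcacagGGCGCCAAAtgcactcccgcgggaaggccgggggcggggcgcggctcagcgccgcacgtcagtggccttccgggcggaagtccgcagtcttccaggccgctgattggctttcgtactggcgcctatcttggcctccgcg
Uhrf1: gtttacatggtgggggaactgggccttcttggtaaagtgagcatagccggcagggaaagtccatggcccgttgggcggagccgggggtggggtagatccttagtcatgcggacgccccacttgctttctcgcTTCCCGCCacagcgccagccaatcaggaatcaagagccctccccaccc

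In Mcm3 (chr1:20820263-20820284, minus strand), the other gene with opposite calls in the 2 knockouts, and in Clspn (chr4:126556990-126557019, plus strand), which had the largest change, the words lay after the start. The stretches shown cover bases 29 to 50 and bases 11 to 40 after it. In Mcm3 the further words TTCCCGCC and TTTCCCGC, which overlap, began at bases 19 and 20 after the start and are not shown.
Mcm3: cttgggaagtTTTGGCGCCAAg
Clspn: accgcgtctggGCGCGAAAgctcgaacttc

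The summed level of the 51 genes was higher in the E12 than in the E47 libraries, whether wild type or knockout, although 9 of the genes had a lower mean in E12 than in E47 wild-type cells and 7 in the E12 than in the E47 knockout. The sum was 1581 and 1598 CPM in E12 wild-type cells and 1629 and 1788 in the E12 knockout. It was 1216 and 1205 CPM in E47 wild-type cells and 1161 and 1143 in the E47 knockout. The E12 and E47 libraries did not overlap in this sum, and E12 knockout library 2 stood highest. Of the 51 genes, 45 differed among the 4 genotypes at an adjusted p under 0.05 in edgeR's quasi-likelihood test, the threshold used throughout, where 80.8% of all genes tested did. The mean was highest in the E12 knockout for 28 genes, in E12 wild-type cells for 17, in E47 wild-type cells for 5 and in the E47 knockout for 1. It was lowest in the E47 knockout for 28 genes and in E47 wild-type cells for 16. Over all genes tested, the E12 knockout was highest for 29%, against 54.9% of the 51, and E12 wild-type cells for 19.5%, against 33.3%. The E47 knockout was lowest for 20% of all genes, against 54.9% of the 51, and E47 wild-type cells for 31.9%, against 31.4%. The most frequent order, from low to high, was E47 knockout, E47 wild type, E12 wild type, E12 knockout, which 14 genes showed. In bulk RNA, fewer cells in S phase and less RNA per cell cannot be told apart.

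**Figure D1:**
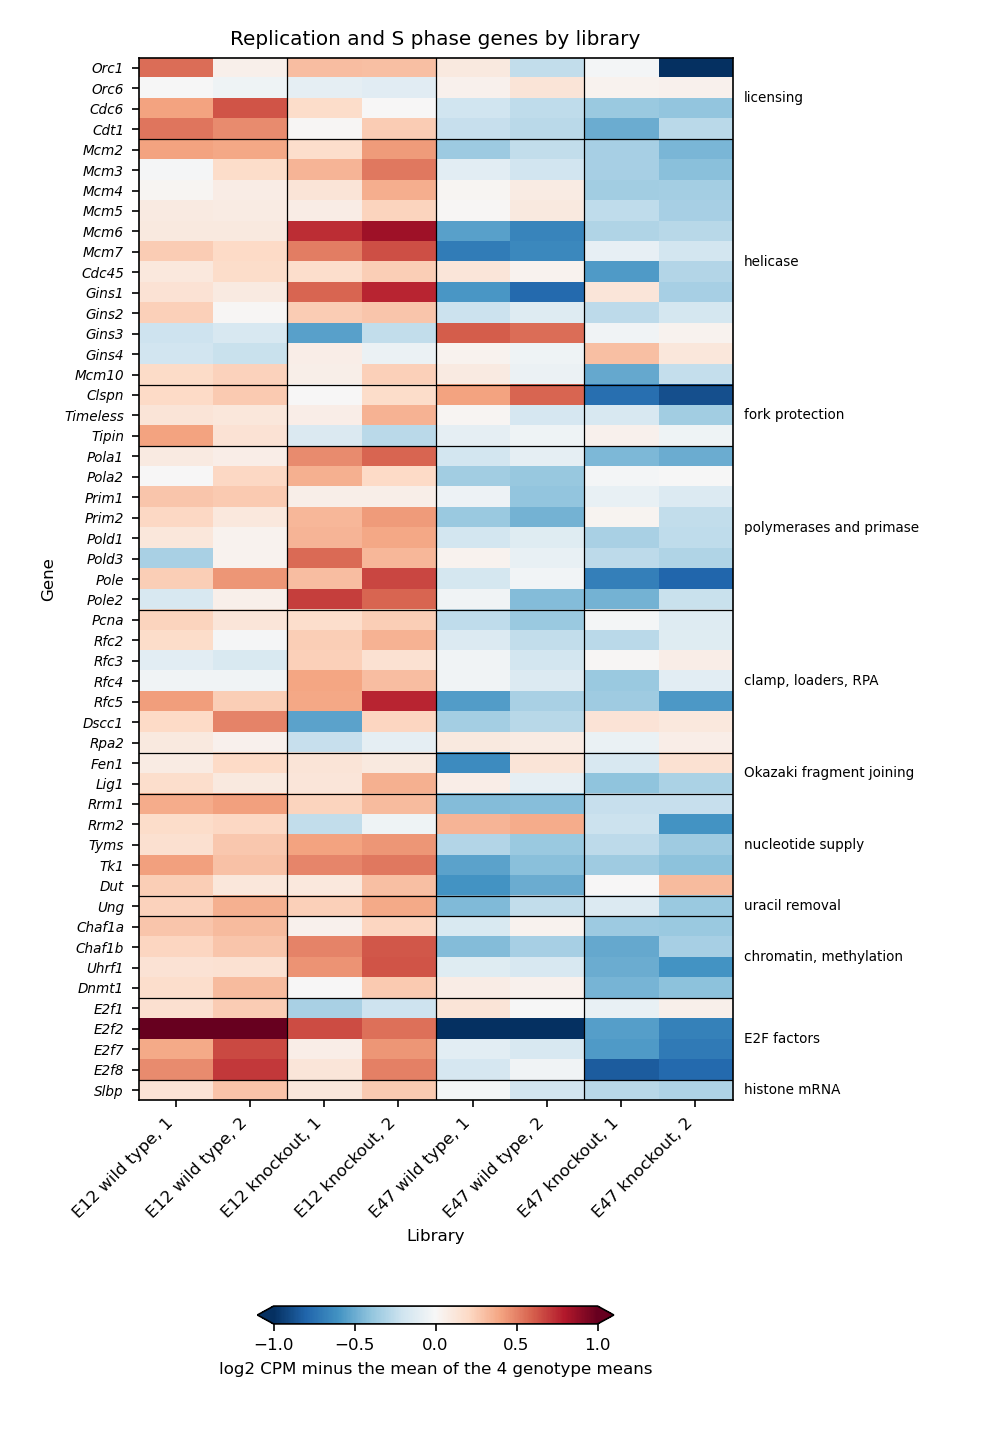
Heat map of the 51 genes (vertical axis, grouped by role) in the 8 libraries (horizontal axis). Colour gives log2 CPM minus the mean of the 4 genotype means, from blue (lower) to red (higher), and most genes are red in the 4 E12 libraries and blue in the 4 E47 libraries.

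Per kilobase of exon, Pcna and the helicase subunits Mcm6 and Mcm7 were the most abundant of the 51 transcripts in the E12 knockout, at 41.8, 31.2 and 30.5 CPM per kb. In the E47 wild type, Pcna stood at 29.1 CPM per kb and Rrm2, a subunit of ribonucleotide reductase, followed at 19.7. The scarcest included the clamp loader subunit Dscc1, at 0.397 to 0.627 CPM per kb over the 4 genotypes, and the origin binding subunit Orc1, at 0.411 to 0.703. Between the 2 libraries of a genotype, the median gap over the 51 genes was 0.0798 to 0.141 on the log2 scale. The widest gap, 1.04, was that of Orc1 in the E47 knockout, which rests on few reads.

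Each knockout had replication genes that rose and others that fell. With all 8 libraries, risers were more in the E12 knockout and fallers more in the E47 knockout. In the E12 knockout, 12 of the 51 genes were higher and 6 lower than in E12 wild-type cells (35.3% changed), where 46.4% of all genes tested changed, 21.9% higher and 24.5% lower. In the E47 knockout, 8 were higher and 16 lower than in E47 wild-type cells (47.1% changed), where 55.2% of all genes changed, 27.7% higher and 27.5% lower. The shares of the 51 genes that changed were thus not above those of all genes, so the counts alone do not set the list apart. The median change was 0.06 on the log2 scale for E12 and -0.09 for E47, against -0.01 and 0.01 over all genes. The E12 median did not stand out without E12 knockout library 2, at -0.007 against -0.004 over all genes. Mcm6, Mcm7 and Gins1 rose in both knockouts, Rrm2 fell in both, and Mcm3, Pola1 and Uhrf1 rose without E12 and fell without E47. Another 16 genes passed the test in neither. In the fits given next, each without 1 library, a smaller share of all genes passed too. Without E12 knockout library 2, 7 genes rose in the E12 knockout, and without E12 knockout library 1, 3 fell. Without E47 wild-type library 2, 3 genes rose in the E47 knockout, without E47 knockout library 1, 4 rose and 10 fell.

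**Figure D2:**
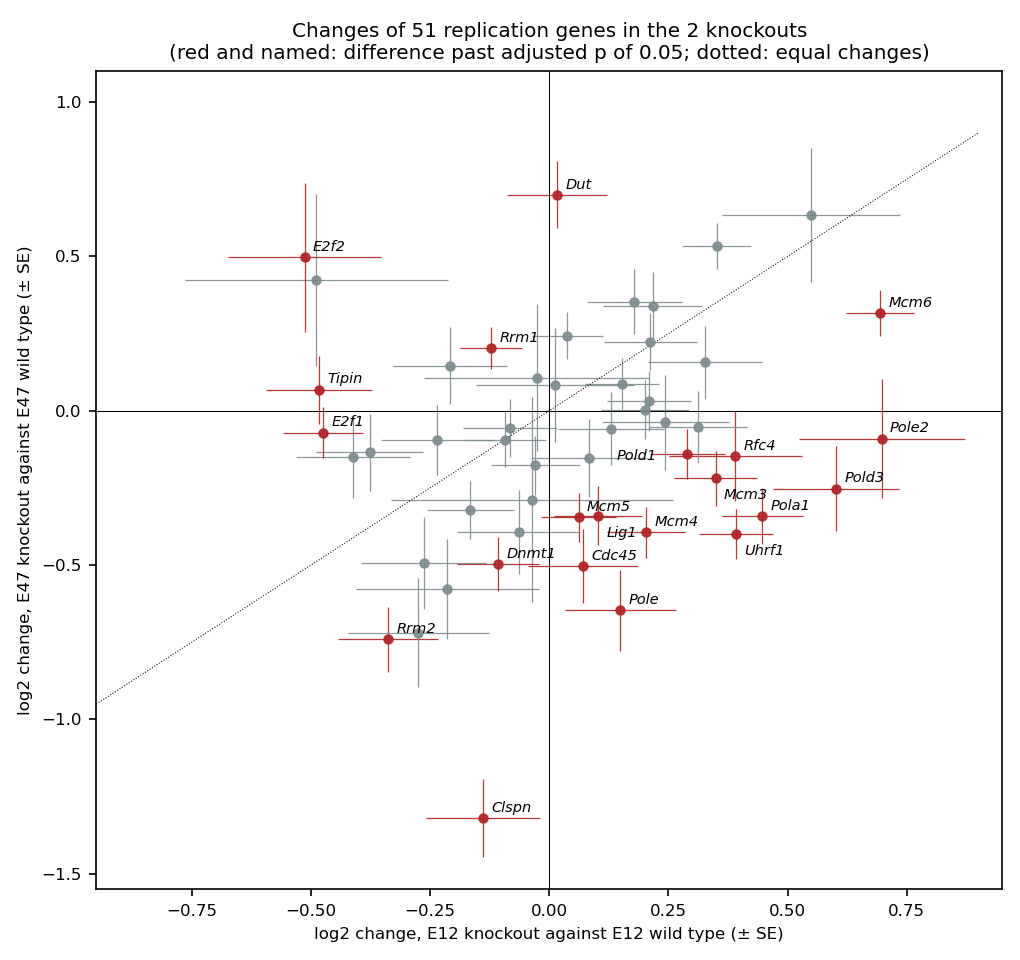
Scatter plot of the change of each of the 51 genes in the E12 knockout (horizontal axis, log2) and in the E47 knockout (vertical axis, log2), each against its own wild type, with bars of 1 SE; red, named points are the 21 genes whose 2 changes differed past the test, grey points the others, and the dotted line marks equal changes. Clspn lies lowest at -1.32 on the E47 axis, and Mcm6 lies to the right at 0.69 and 0.32.

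**Figure D3:**
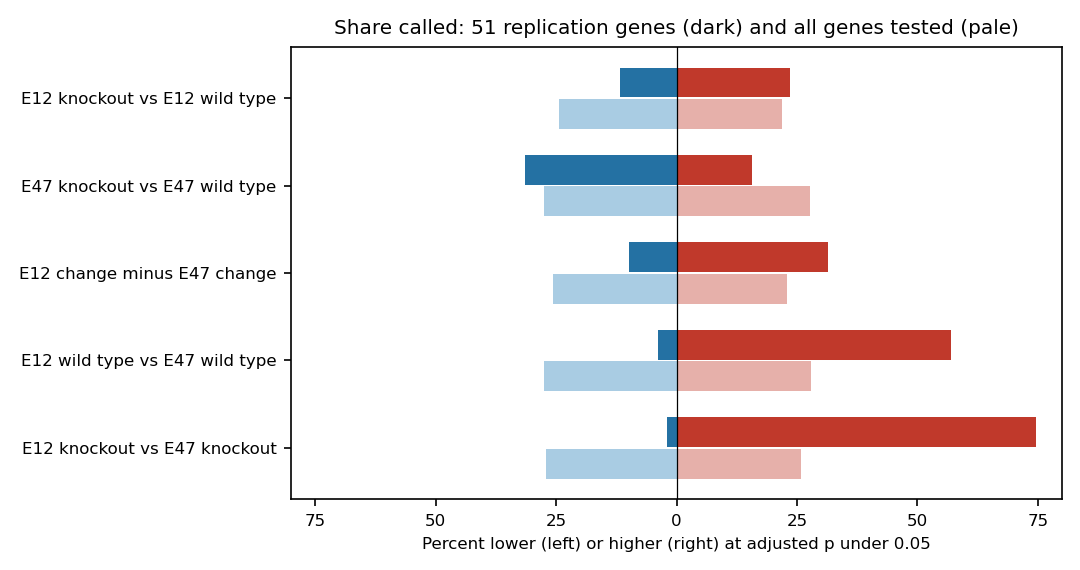
Bars show the percentage (horizontal axis) of the 51 replication genes (dark) and of all 13992 genes tested (pale) called higher (right, red) or lower (left, blue) in each of the 5 comparisons (vertical axis). The dark bars exceed the pale ones most for higher calls in E12 against E47 cells, at 56.9% in wild type and 74.5% in knockout cells.

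Of the licensing factors, Cdc6 and Cdt1, which load the helicase onto origins, fell in the E12 knockout. Cdc6 read 13.6 and 15.9 CPM in E12 wild-type cells and 11.7 and 10.3 in its knockout, with 8.95 and 8.62 in E47 wild-type cells and 7.95 and 7.82 in its knockout. All 4 E12 libraries lay above all 4 E47 libraries. Cdc6 fell by 0.41 on the log2 scale in the E12 knockout (SE 0.12, adjusted p = 0.011) and Cdt1 by 0.38 (SE 0.11, adjusted p = 0.013). Their changes in the E47 knockout were -0.15 and -0.14 and did not pass the test. The E12 call of Cdc6 ended without E12 wild-type library 2 (-0.30) or knockout library 2 (-0.32), and that of Cdt1 without wild-type library 1 (-0.34) or knockout library 1 (-0.25). Neither passed under DESeq2 (-0.42 and -0.38). The origin subunits Orc1 and Orc6 passed neither knockout test, with Orc6 between 14.4 and 17.0 CPM in all 8 libraries.

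Among the 6 subunits of the Mcm2 to Mcm7 helicase, which encircles and unwinds DNA, the transcripts did not move together. Mcm6 read 89.8 and 90.3 CPM in E12 wild-type cells, 140 and 152 in the E12 knockout, 57.8 and 53.2 in E47 wild-type cells and 68.5 and 69.4 in the E47 knockout. The 4 genotypes did not overlap. Mcm6 rose by 0.69 in the E12 knockout (SE 0.071, adjusted p = 1.5e-06) and by 0.32 in the E47 knockout (SE 0.074, adjusted p = 0.0022), and the 2 changes differed by 0.38 (adjusted p = 0.0069). Mcm7 rose from 108 and 104 to 129 and 142 CPM without E12 and from 55.7 and 58.0 to 85.2 and 79.5 CPM without E47. Its changes were 0.35 (adjusted p = 0.001) and 0.53 (adjusted p = 2.8e-05).

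Mcm3 read 55.1 and 63.2 CPM in E12 wild-type cells and 70.5 and 80.3 in the E12 knockout, then 51.6 and 48.8 in E47 wild-type cells and 44.2 and 41.7 in the E47 knockout. It was highest in the E12 knockout and lowest in the E47 knockout. Mcm3 rose by 0.35 without E12 (SE 0.087, adjusted p = 0.004) and fell by 0.22 without E47 (SE 0.089, adjusted p = 0.049). The E47 call ended without any 1 of the 4 E47 libraries, at -0.26 to -0.17, and under DESeq2, with upper-quartile scaling and with no filter, and the E12 call without E12 knockout library 2, at 0.26. Mcm4 and Mcm5 fell in the E47 knockout by 0.39 and 0.35 (adjusted p = 0.00094 and 0.0018) and changed by 0.20 and 0.06 in the E12 knockout, which did not pass the test. Mcm2 changed by -0.09 in both knockouts and passed neither test.

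Cdc45, which with GINS turns the loaded Mcm ring into an active helicase, read 13.0 and 12.2 CPM in E47 wild-type cells and 8.06 and 9.76 in its knockout. It fell by 0.50 (adjusted p = 0.0027), a call that ended without E47 knockout library 1 (-0.35). The 4 GINS subunits differed from each other. Gins1 rose by 0.55 without E12 and by 0.63 without E47 (adjusted p = 0.025 and 0.022), Gins3 fell by 0.58 without E47 (adjusted p = 0.007), and Gins2 and Gins4 passed neither test. Gins1 ended as a call without E12 wild-type library 1 or 2 or knockout library 2 (0.47 to 0.58), and without E47 wild-type library 2 (0.52) or knockout library 1 (0.38), and in both knockouts under DESeq2 (0.55 and 0.60). Gins3 did so without E47 knockout library 1 (-0.53). Mcm10, an initiation factor, fell by 0.39 in the E47 knockout (adjusted p = 0.024), and not without E47 wild-type library 1 (-0.33) or knockout library 1 (-0.24), nor under DESeq2 or with upper-quartile scaling. Exons of Gins2 overlap a gene on the opposite strand over 67.3% of their length, and the libraries did not keep strand, so its values are uncertain.

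Clspn (claspin), which links the fork to the checkpoint kinase Chk1, showed the largest change of the 51 genes in either knockout. It read 14.6 and 16.6 CPM in E47 wild-type cells and 6.55 and 6.02 in the E47 knockout, against 12.7 and 13.2 in E12 wild-type cells and 11.1 and 12.6 in the E12 knockout. The E47 knockout libraries lay below the other 6. Clspn fell by 1.32 without E47 (SE 0.13, adjusted p = 4.9e-07) and changed by -0.14 without E12 (adjusted p = 0.37). The changes differed by 1.18 (SE 0.17, adjusted p = 5.9e-05). Tipin, of the fork protection complex, read 20.2 and 16.8 CPM in E12 wild-type cells and 13.8 and 12.7 in its knockout, a fall of 0.48 (adjusted p = 0.0024) that did not pass without E12 wild-type library 1 (-0.34). Its partner Timeless passed neither knockout test, at 0.08 and -0.15.

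The polymerases split by subunit and by knockout. Pola1, the catalytic subunit of polymerase alpha, read 23.8 and 23.3 CPM in E12 wild-type cells, 30.9 and 33.4 in the E12 knockout, 19.7 and 20.98 in E47 wild-type cells and 16.4 and 15.8 in the E47 knockout. The 4 genotypes did not overlap, with the E12 knockout at the top and the E47 knockout at the bottom. Pola1 rose by 0.45 without E12 (SE 0.085, adjusted p = 0.00056) and fell by 0.34 without E47 (SE 0.091, adjusted p = 0.0055), and the fall did not pass without E47 wild-type library 2 (-0.29). Its accessory subunit Pola2 and the primase subunit Prim2 rose in the E47 knockout by 0.35 and 0.34 (adjusted p = 0.01 and 0.018). These calls ended under DESeq2 (0.34 and 0.32) and without E47 wild-type library 2 (0.33 and 0.28), and that of Prim2 also without knockout library 1 (0.19). The catalytic primase subunit Prim1 passed neither test.

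Pole, the catalytic subunit of polymerase epsilon, read 17.1 and 18.9 CPM in E47 wild-type cells and 11.9 and 11.1 in the E47 knockout, with 22.8 to 30.6 CPM in the E12 libraries. It fell by 0.65 without E47 (SE 0.13, adjusted p = 0.00077) and changed by 0.15 without E12, which did not pass. Its second subunit Pole2 read 4.53 and 5.23 CPM in E12 wild-type cells and 8.16 and 7.57 in the E12 knockout, and lay between 3.64 and 4.94 CPM in the E47 libraries. Pole2 rose by 0.70 without E12 (SE 0.17, adjusted p = 0.0042). Pold3 and Pold1, subunits of polymerase delta, rose by 0.60 and 0.29 in the E12 knockout (adjusted p = 0.0017 and 0.007), and Pold1 did not pass without E12 wild-type library 2 (0.25). In the E47 knockout Pold3, Pold1 and Pole2 passed no test, at -0.25, -0.14 and -0.09.

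**Figure D4:**
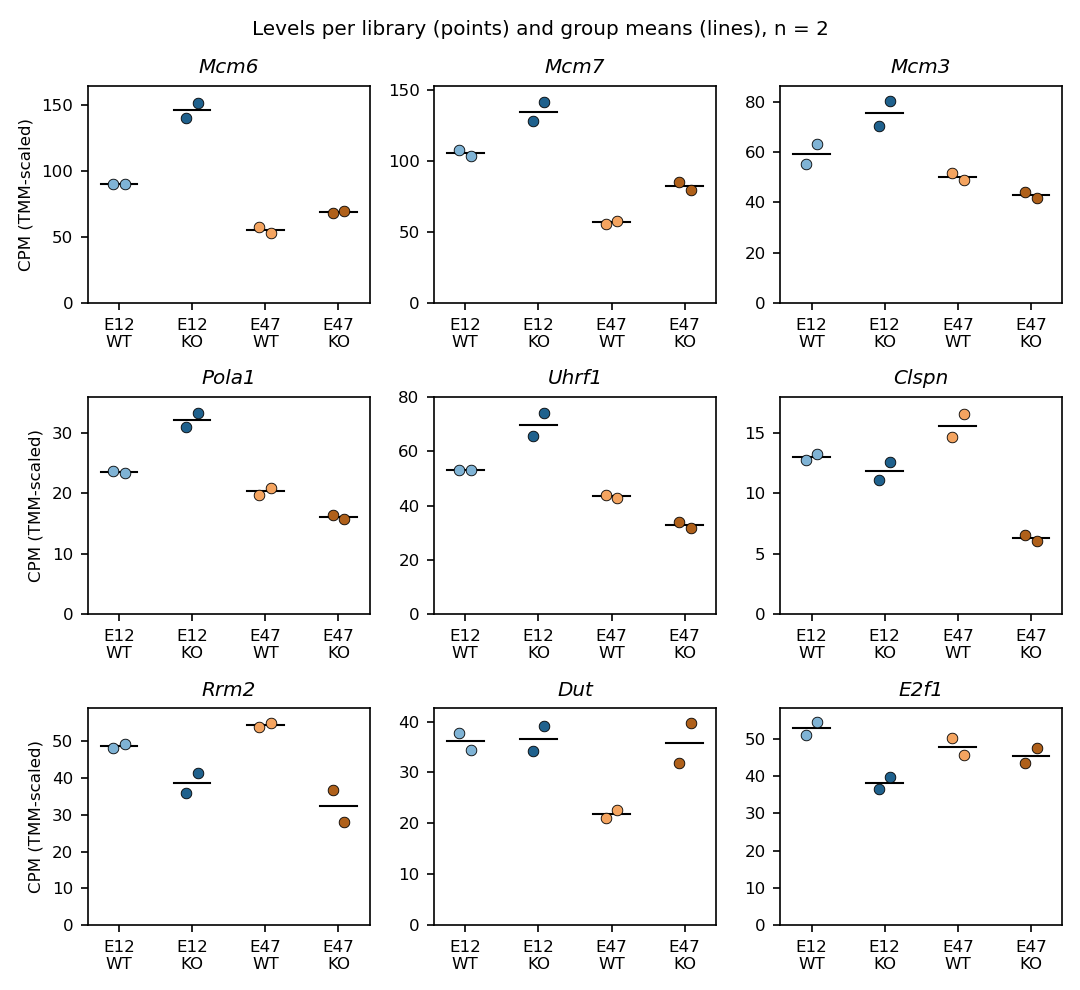
Dot plots of CPM (vertical axes, starting at 0) in the 2 libraries of each genotype (horizontal axes) for 9 of the replication genes, with a line at the mean of 2 libraries. Clspn drops in the E47 knockout to 6.55 and 6.02 CPM, and Mcm6 climbs in the E12 knockout to 140 and 152 CPM.

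Pcna, the sliding clamp, read 101 and 94.1 CPM in E12 wild-type cells, 97.8 and 103 in its knockout, 72.4 and 67.1 in E47 wild-type cells and 85.3 and 79.3 in its knockout. It rose by 0.24 without E47 (SE 0.075, adjusted p = 0.013) and changed by 0.04 without E12. The E47 call ended without E47 wild-type library 2 (0.19) or knockout library 1 (0.20). Of the clamp loader subunits, Rfc3 and Rfc4 rose in the E12 knockout by 0.33 and 0.39 (adjusted p = 0.037 and 0.033), calls that ended without any 1 of the 4 E12 libraries, at 0.29 to 0.37 and 0.35 to 0.44, and under DESeq2 (0.32 and 0.38). Rfc3 also did not pass with no filter or in the fit of the 2 E12 groups alone. Rfc2, Rfc5, Dscc1 and the single-strand binding subunit Rpa2 passed neither knockout test. Lig1, the ligase that seals Okazaki fragments, read 33.8 and 30.4 CPM in E47 wild-type cells and 24.5 and 25.9 in its knockout. It fell by 0.34 (SE 0.096, adjusted p = 0.0074), and not without E47 wild-type library 1 (-0.27) or knockout library 1 (-0.29). The flap nuclease gene Fen1 passed no test, and 84.2% of its exon length overlaps other genes on the opposite strand, so its values are uncertain.

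The genes of nucleotide supply went in different directions. Rrm2, the S phase subunit of ribonucleotide reductase, read 48.2 and 49.2 CPM in E12 wild-type cells, 35.9 and 41.4 in the E12 knockout, 53.9 and 54.9 in E47 wild-type cells and 36.6 and 28.1 in the E47 knockout. Both wild types lay above both knockouts. Rrm2 fell by 0.34 without E12 (adjusted p = 0.016), and not without E12 knockout library 1 (-0.23), and by 0.74 without E47 (SE 0.10, adjusted p = 2.9e-05). The large subunit Rrm1 rose by 0.20 in the E47 knockout (adjusted p = 0.018), a call that ended without any 1 of the 4 E47 libraries (0.20 to 0.21) or under DESeq2 (0.19), and changed by -0.12 in the E12 knockout. Dut, the dUTPase that keeps uracil out of DNA, rose by 0.70 without E47 (SE 0.11, adjusted p = 7.5e-05), from 21.1 and 22.6 to 31.9 and 39.7 CPM. In the E12 wild type and knockout Dut stood between 34.2 and 39.1 CPM. Thymidylate synthase Tyms, thymidine kinase Tk1 and the uracil glycosylase Ung passed neither knockout test.

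Of the 4 genes that carry chromatin and DNA methylation through replication, 3 fell without E47 and 2 rose without E12. Uhrf1, which brings the maintenance methyltransferase to newly copied DNA, read 53.1 and 53.3 CPM in E12 wild-type cells and 65.7 and 74.1 in its knockout, then 44.0 and 42.8 in E47 wild-type cells and 34.0 and 31.7 in its knockout. It rose by 0.39 (SE 0.078, adjusted p = 0.00078) and fell by 0.40 (SE 0.082, adjusted p = 0.00082). Dnmt1, that methyltransferase, read 86.6 and 84.7 CPM in E47 wild-type cells and 59.4 and 62.0 in its knockout. All 4 E12 libraries of Dnmt1 lay at 82.6 CPM or above. Dnmt1 fell by 0.50 (SE 0.088, adjusted p = 0.00022) without E47 and changed by -0.11 without E12. Of the chromatin assembly factor, Chaf1a fell by 0.32 without E47 (adjusted p = 0.0099) and Chaf1b rose by 0.31 without E12 (adjusted p = 0.022). Chaf1a did not pass without E47 wild-type library 2 (-0.21) or either knockout library (-0.32 and -0.31), nor Chaf1b without E12 wild-type library 1 (0.28) or knockout library 2 (0.26) or under DESeq2 (0.31). Chaf1a shares 52.5% of its exon length with a gene on the opposite strand.

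The E2F factors fell where their change passed a knockout test. E2f1, an activator of S phase genes, read 51.2 and 54.6 CPM in E12 wild-type cells and 36.5 and 39.7 in the E12 knockout, and 43.6 to 50.1 CPM in the E47 libraries. The E12 knockout libraries were the lowest of the 8. E2f1 fell by 0.47 without E12 (SE 0.083, adjusted p = 0.00028) and changed by -0.07 without E47. E2f2, another activator, read 7.27 and 6.58 CPM in E12 wild-type cells, 5.02 and 4.69 in the E12 knockout, 1.504 and 1.482 in E47 wild-type cells and 2.18 and 2.00 in the E47 knockout. It fell by 0.51 without E12 (adjusted p = 0.017) and changed by 0.50 without E47, which did not pass. The E12 call of E2f2 ended without E12 wild-type library 1 or either knockout library (-0.56 to -0.44) and under DESeq2 (-0.52). E2f7 and E2f8, repressors that switch S phase genes off again, fell by 0.49 and 0.72 without E47 (adjusted p = 0.012 and 0.0031), and E2f7 did not pass without E47 knockout library 2 (-0.42). In the E12 knockout, Cdc6, Cdt1, E2f2, Tipin and Rrm2 were lower along with E2f1. Mcm6, Mcm7, Pola1, Pole2 and Uhrf1 were among the genes that were higher there.

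The difference between the 2 knockout changes was tested for each gene. It passed for 21 of the 51 genes, 16 with the higher change without E12 and 5 with the lower (41.2%), where 48.6% of all genes passed, 22.9% higher and 25.7% lower. With upper-quartile scaling the split was 14 and 8, where 19.6% of all genes were higher and 29.2% lower. The median difference was 0.19, against -0.01 over all genes. After Clspn, the largest positive differences were those of Pold3 (0.85, SE 0.19), Pole (0.80, SE 0.18), Pola1 (0.79, SE 0.12), Uhrf1 (0.79, SE 0.11) and Pole2 (0.79, SE 0.26). The negative ones were E2f2 (-1.01), Dut (-0.68), Tipin (-0.55), E2f1 (-0.40) and Rrm1 (-0.33). For Mcm7 the difference was -0.18 (95% interval -0.405 to 0.041) and for Gins1 -0.08 (-0.699 to 0.532), and neither passed. Calls that ended without 1 library were those of Cdc45, Dnmt1, Lig1, Pole2, Rfc4 and Rrm2 (then 0.23 to 0.73) and of E2f1 and Tipin (then -0.41 to -0.33). Under DESeq2 those of E2f2, Pole2, Rfc4 and Rrm2 ended. E47 wild-type libraries enter every one of these differences, and endothelial and smooth muscle marker sums were higher in them than in the E47 knockout. The part of these was not tested.

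Between E12 and E47 cells the replication genes differed mostly in one direction, with higher levels in the E12 cells. In E12 against E47 wild-type cells, 29 of the 51 genes were higher and 2 lower (60.8% changed), where 55.4% of all genes changed, 27.8% higher and 27.6% lower. The median was 0.33, against 0.00 over all genes. The 2 lower genes were Gins3 (-0.76, adjusted p = 0.0015) and Clspn (-0.28, adjusted p = 0.049). E2f2 differed most, at 2.22 (SE 0.20, adjusted p = 1.8e-07), a 4.66-fold difference. Mcm7, Rrm1, Tk1 and Gins1 followed, at 0.89, 0.83, 0.82 and 0.82. Tk1 read 39.9 and 36.9 CPM in E12 wild-type cells and 20.7 and 22.5 in E47 wild-type cells, with no overlap. Mcm4 and Mcm5 did not pass, at -0.01 and 0.03, with 95% intervals of -0.181 to 0.169 and -0.138 to 0.197.

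Calls for 10 of the 29 genes ended without 1 of the libraries, those of Chaf1a, Gins1, Gins2, Mcm3, Pold1, Prim1, Rfc2, Slbp, Tipin and Uhrf1, at 0.14 to 0.70. Those of Gins2, Mcm3, Pold1, Rfc2 and Tipin, and the lower call of Clspn, also ended under DESeq2. Without E47 wild-type library 2, 20 genes were called higher in E12 wild-type cells. In that fit a smaller share of all genes passed too. The lower call of Clspn ended without any of 7 libraries, at -0.31 to -0.17. Summed endothelial and smooth muscle markers were higher in E47 wild-type cells than in E12 wild-type cells. Summed mesothelial markers were lower, although Krt18 among them was higher. Their part in these differences was not tested.

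In the E12 knockout against the E47 knockout, 38 of the 51 genes were higher and 1 lower (76.5% changed), where 52.9% of all genes changed, 25.9% higher and 27.0% lower. The median was 0.54, against -0.01 over all genes. Pole differed most, at 1.23 (SE 0.13, adjusted p = 1.2e-06), then E2f2 (1.21), E2f8 (1.12), Uhrf1 (1.08), Mcm6 (1.08) and Rfc5 (1.03). Rfc5 read 17.2 and 22.3 CPM in the E12 knockout and 10.2 and 8.82 in the E47 knockout. E2f1 was the lower gene, at -0.26 (adjusted p = 0.017), a call that ended without E12 knockout library 1 or E47 knockout library 2 (-0.19 in each) and under DESeq2. Marker sums also differed between the knockouts, at 10.2 to 10.6 CPM in the E12 and 218 to 219 in the E47 knockout for endothelial, 874 to 894 and 398 to 412 for mesothelial, 212 to 236 and 440 to 498 for fibroblast and 4450 to 4640 and 5210 to 5690 for smooth muscle markers. Eng made up 211 and 215 CPM of the endothelial sum in the E47 knockout, against 4.44 and 4.33 in the E12 knockout. Of the 10 endothelial markers tested, 2 were lower and 1 higher in the E12 than in the E47 knockout. The part of these marker sums in the gene differences was not tested.

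**Figure D5:**
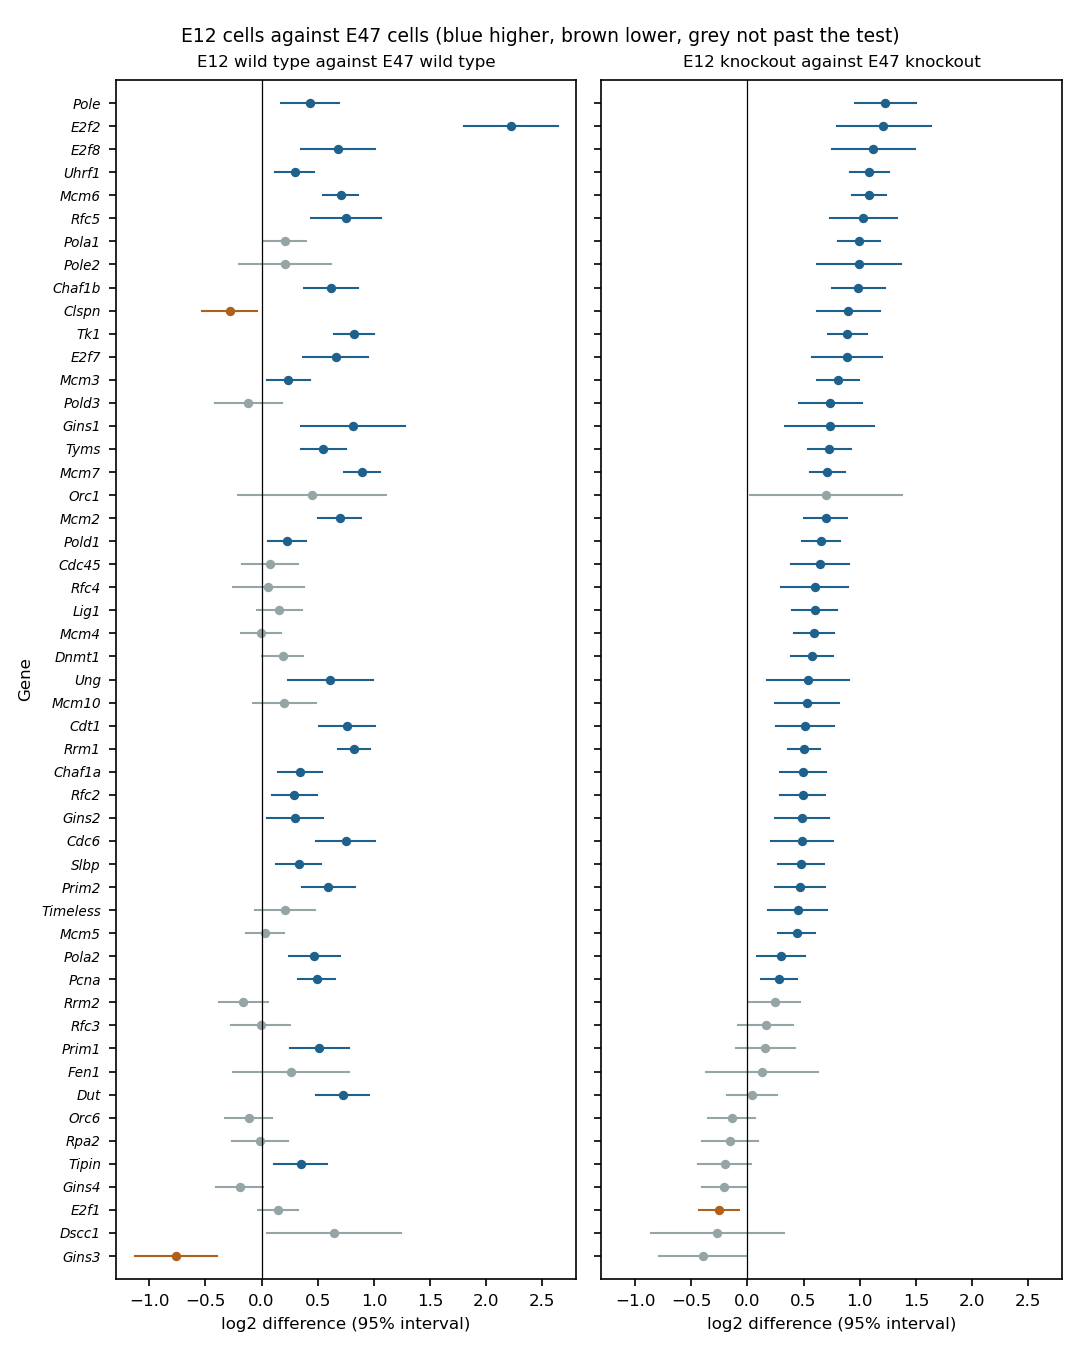
Points with 95% intervals give the difference of each of the 51 genes between E12 and E47 cells (horizontal axes, log2) in wild-type and in knockout cells, with genes on the vertical axis in the order of the knockout difference; blue marks genes called higher in E12 cells, brown lower, grey those not past the test. E2f2 lies at 2.22 in the wild-type panel, and in the knockout panel 44 of 51 genes lie above 0.

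Slbp, which binds the stem-loop of replication-dependent histone mRNAs, passed neither knockout test, at -0.03 and -0.18. It was higher in E12 than in E47 cells, by 0.33 in wild type and 0.48 in knockouts (adjusted p = 0.0081 and 0.00062). A pattern of histone symbols took 72 genes, of which 31 were tested. Leaving out the replication-independent H1f0 and H1f10, 24 of 29 were lower and 0 higher in E12 than in E47 wild-type cells. Of all genes, 27.6% were lower and 27.8% higher there. In the E12 knockout against the E47 knockout 10 were lower and 4 higher, where 27.0% and 25.9% of all genes were. In the E47 knockout 19 of 29 fell and 0 rose, where 27.5% of all genes fell and 27.7% rose. In the E12 knockout 4 rose and 1 fell, where 21.9% and 24.5% of all genes did. Summed without those 2 genes, histone RNA was 181 and 164 CPM in E12 wild-type cells, 195 and 188 in the E12 knockout, 363 and 369 in E47 wild-type cells and 304 and 299.9 in the E47 knockout. The summed Mcm2 to Mcm7 level was 443 and 449, 522 and 586, 318 and 323, and 331 and 318 CPM in the same libraries. All 4 E47 libraries had more histone RNA and less helicase RNA than all 4 E12 libraries. Replication-dependent histone mRNAs lack a polyA tail, and the libraries were polyA-enriched, so only the polyadenylated part was counted.

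Further replication genes that are not among the 51, from a list of 45 of which 44 were tested, were counted in the same way. In the E12 knockout 12 rose (27.3%) and 6 fell (13.6%), against 21.9% and 24.5% of all genes. In the E47 knockout 7 rose (15.9%) and 10 fell (22.7%), against 27.7% and 27.5%. In E12 against E47 wild-type cells 20 were higher (45.5%) and 4 lower (9.09%), against 27.8% and 27.6%. Between the knockouts 28 were higher (63.6%) and 4 lower (9.09%), against 25.9% and 27.0%, and the medians were 0.25 in wild-type and 0.41 in knockout cells. Rpa1, the large single-strand binding subunit, rose from 136 and 135 to 169 and 182 CPM without E12 and from 65.0 and 69.6 to 91.1 and 89.6 CPM without E47. Dctd, the dCMP deaminase, rose by 0.63 without E12 and fell by 0.62 without E47 (adjusted p = 0.00017 and 0.00023). Pold4, the small subunit of polymerase delta, did the opposite, at -0.67 and 0.55 (adjusted p = 0.00027 and 0.00088).

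Regulators of the same programme were read from 3 further lists, beside the shares of all genes just given. Of 15 RB, DREAM and other E2F genes, 4 rose (26.7%) and 3 fell (20%) in the E12 knockout, and 0 rose and 6 fell (40%) in the E47 knockout. Tfdp2, a dimer partner of E2F factors, fell by 0.94 in the E12 knockout (SE 0.090, adjusted p = 7.4e-07), from 67.8 and 71.0 to 33.7 and 38.6 CPM. Of 15 S phase kinases and checkpoint genes, 2 rose (13.3%) and 3 fell (20%) without E12, and 0 rose and 6 fell (40%) without E47. The cyclin genes differed: Ccna2 rose by 0.32 without E12 and fell by 0.66 without E47, whereas Ccne1 fell in both, by 0.45 and 0.57. Wee1, the kinase that restrains Cdk1, fell by 1.02 without E47 (adjusted p = 1.1e-06). Of 20 mitosis genes, 13 fell (65%) and 1 rose (5%) without E47, while 4 rose (20%) and 1 fell (5%) without E12. In the E12 knockout all 20 were higher than in the E47 knockout, where 25.9% of all genes were, with a median of 0.9995, against 0.54 for the 51 replication genes. Mki67, the proliferation marker, read 115 and 105 CPM in E47 wild-type cells and 42.6 and 42.0 in its knockout.

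The E2F words shown above were counted in the promoters of all genes in the same table. They stood in at least 1 window of 23 of the 42 matched replication genes (54.8%), against 5.11% of 27025 genes. The CCAAT word of NFY stood in 59.5%, against 41.1%. The E boxes CAGCTG and CAGGTG, words that E proteins such as E12 and E47 can bind, stood in 12 of the 42 (28.6%), against 35.9% of all genes. The CHR words TTTGAA and TTCGAA stood in 21.4%, against 21.7%. Words were searched on both strands. Some windows, such as the only ones of E2f1 and Timeless, lay wholly inside the gene as GENCODE places it. Sequence before the GENCODE start of those genes was not searched.

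By call, 10 of the 11 matched genes that rose in the E12 knockout held an E2F word, among them Mcm6, Mcm7, Mcm3, Pola1 and Uhrf1, and the exception was Chaf1b. Of the 5 matched genes that fell there, 3 did, and E2f1, whose window lay inside the gene, was among those that did not. In the E47 knockout 10 of the 14 matched genes that fell held one, Clspn and Pola1 among them, and 3 of the 6 that rose. Of matched genes not called, 10 of 26 held one for the E12 knockout and 10 of 22 for the E47 knockout. E boxes stood in 1 of those 11 risers and 3 of those 5 fallers, Cdc6 and Rrm2 among the latter, and in 2 of the 14 and 1 of the 6. Among genes not called they stood in 8 of the 26 and 9 of the 22. For the E47 knockout, CCAAT stood in 13 of the 14 fallers, 4 of the 6 risers and 8 of the 22 not called. For the E12 knockout it stood in 6 of the 11 risers, 2 of the 5 fallers and 17 of the 26. These counts describe letters in a 300-base window, not binding.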

How the data were processed

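Bulk polyA RNA of 8 libraries was measured, 2 per genotype, grouped by the genotype label. The deposited values are counts per gene, whole numbers that are not normalized, 1 column per library. Reads were checked with FastQC, and HISAT, featureCounts and the mouse build GRCm38 (mm10) were used, per the submitters' processing notes. Tool versions, the counting options, the gene models and the handling of reads with several matches: not given in the sources used here. Per the labels' protocols, strand was not kept, so reads from overlapping antisense genes are mixed. Dates stood in place of 26 symbols, none of them among the genes described.

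Counts were analysed with edgeR 4.0.16 (limma 3.58.1, R 4.3.3). Low counts were removed with edgeR's own filter by group, which left 13992 genes, and library sizes were scaled by TMM, edgeR's trimmed mean of M values. One model with a mean per genotype and no covariate was fitted to the 8 libraries, and 5 contrasts and a test of any difference were run with the quasi-likelihood F test. The 4 genotypes thus share 1 estimate of the spread, with 4 residual degrees of freedom and a common biological coefficient of variation of 0.0598. Benjamini-Hochberg adjustment ran over every gene tested, and a call is an adjusted p below 0.05. With 2 libraries against 2, an exact permutation test of a single gene cannot go below a two-sided p of 0.33 and was not used. Changes are unshrunk log2 fold changes with SE. Levels per kilobase divide CPM by the merged exon length of GENCODE M21 (GRCm38).

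The 51 genes, their roles, the other lists and the marker lists were chosen with earlier results of these data known. All 51 could be named. Per role, library values were eligible for the gene with the lowest p over both knockout contrasts, and also for genes called in opposite directions. None are given for Ung and Slbp, and those of Lig1, Dnmt1 and E2f1 are given in part or as a range. Other library values were added after they were seen. From each other list up to 4 genes with the lowest p were eligible, and Tcf3 always. On counts simulated for the E12 contrast (13602 genes), the test called 34% of genes changed 1.25-fold and 66% of those changed 1.5-fold. It called 94% at 2-fold and 100% at 4-fold, and 14 of 13402 unchanged genes. Only 50 genes were changed at each fold there, whereas 46.4% of all genes passed in that contrast of the data. The adjustment was therefore stricter in the simulation, and these rates do not carry over to the calls reported. Alternatives were other scalings, DESeq2 1.42.0, no filter, a fit of the 2 groups alone and leaving out each library, and, chosen after seeing the data, leaving out both E47 wild-type libraries. Promoters came from RefSeq (GRCm38.p6). Of the 51 genes, 9 had no entry (Dscc1, Gins1, Gins2, Gins4, Mcm4, Pole, Prim2, Rfc2, Tipin).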

Additional observations from a re-analysis of the deposited data

Results flagged for a closer look

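For 21 of the 51 genes (41.2%, where 48.6% of all genes passed) the changes in the 2 knockouts differed by the test of the difference itself (edgeR's quasi-likelihood test, adjusted p under 0.05), given here as the log2 change without E12 minus that without E47. In the helicase these were Mcm3 (0.57), Mcm4 (0.60), Mcm5 (0.41), Mcm6 (0.38) and Cdc45 (0.57). At the fork they were Clspn (1.18) and Tipin (-0.55), and among the polymerases Pola1 (0.79), Pold1 (0.43), Pold3 (0.85), Pole (0.80) and Pole2 (0.79). The clamp loader subunit Rfc4 (0.54) and the ligase Lig1 (0.44) followed. In nucleotide supply the differences were 0.40 for Rrm2, -0.33 for Rrm1 and -0.68 for Dut. For chromatin and methylation they were 0.79 for Uhrf1 and 0.39 for Dnmt1, and for the E2F factors -0.40 for E2f1 and -1.01 for E2f2. The calls of Cdc45, Dnmt1, Lig1, Pole2, Rfc4, Rrm2, E2f1 and Tipin ended without 1 of the libraries, and those of E2f2, Pole2, Rfc4 and Rrm2 under DESeq2. Rfc4 did not pass under 10 of the 12 alternatives run for the difference, Rrm2 under 6 and Pole2 under 5. Only for Mcm3, Pola1 and Uhrf1 did both knockout changes pass the test with opposite signs.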

How the results depend on the processing

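No gene's called change turned its sign under any alternative run. Calls kept under every one of them numbered 7 of 18 in the E12 knockout, 11 of 24 in the E47 knockout, 12 of 21 for the difference, 20 of 31 between wild types and 32 of 39 between knockouts. With single libraries left out, the E12 knockout had 7 to 13 genes higher and 3 to 7 lower, and the E47 knockout 3 to 9 higher and 10 to 16 lower. The difference had 11 to 15 higher and 4 to 6 lower, the wild types 20 to 31 higher and 1 to 2 lower, the knockouts 34 to 39 higher and 0 to 1 lower, and 44 to 45 genes differed among genotypes. Under DESeq2, 3 genes were lower in the E12 knockout, 4 higher in the E47 knockout, 1 lower between wild types and 0 lower between knockouts, where E2f1 stood at an adjusted p of 0.053 and was the 1 gene lower at an unadjusted p under 0.05. With upper-quartile scaling 8 genes were lower for the difference, 1 between wild types and 2 between knockouts. In that setting 29.2%, 25.7% and 29.5% of all genes were lower in these comparisons. Between wild types 1 gene was lower with no filter on low counts, and 1 in the fit of the 2 groups alone. Leaving out both E47 wild-type libraries gave the same 18 calls in the E12 knockout and the same 39 between knockouts, contrasts that do not use their means, so only the shared spread, the scaling and the filter could change. The cause of these shifts was not tested. Where a lone library remained in a group, it was assumed to vary like the other groups. No paired analysis was possible because the labels number the libraries from 1 to 8 and give the groups no replicate numbers in common. Depth limits Orc1, Dscc1, E2f2, Fen1 and Gins1 most, whose smallest library counts were 14, 24, 21, 30 and 36, and a failure to pass does not show that they did not differ.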
